A study of Rattus norvegicus with 11 samples.

Results

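In RNA sequencing of the rat medial prefrontal cortex (mPFC), 7 genes of the 15607 measured are described here for jumps in level between single animals, with many reads in some animals and few or none in the others. The 7 genes were chosen by their measured level: they had a mean of at least 50 normalized counts over all libraries and, once the libraries were sorted by level, a gap of at least 3 on the log2 scale between a pair of neighbours, which was taken here on log2(DESeq2-normalized count + 1). The rule used the values of all libraries and no group label, so the gaps are described without a test. The libraries above the largest gap of a gene are called its high side and those below it its low side. The deposited tables name genes by Ensembl identifier and do not pair them with symbols, and the RefSeq table used here held an Ensembl identifier for 0 of its 47357 genes, so the 7 genes are given by identifier and no function is stated for them.

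The mPFC is the part of the frontal cortex that takes part in working memory, decision making and emotional control. A library made from a punch of this tissue holds RNA of neurons and glia together, so fewer cells of a type and less RNA per cell cannot be told apart in it. Sprague-Dawley rats are an outbred stock, in which animals of one group differ in genotype, unlike animals of an inbred strain, and no genotype was analysed here.

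The samples were mPFC punches of Sprague-Dawley rats aged 2 to 3 months, with 4 males, 3 females in proestrus, the stage at which ovarian hormones are high, and 4 females in diestrus, when they are low. Each library came from 1 animal and is named by the group and the number of its label. The females had been followed by daily vaginal smears over regular cycles after pair-housing, and males were killed on the same days as females. Diestrus females were killed early in the first day of that stage and proestrus females in the early afternoon. The hour in diestrus is not stated further, so the stage and the hour of collection may not be told apart. The libraries held 15851470 to 24589880 reads on genes, and the tissue label was not checked against marker genes because neither the deposited tables nor the RefSeq table paired symbols with identifiers. A table of the study that gives symbols was at hand only in part, did not reach the 7 genes and was not used here.

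A gap of this size was what the 7 genes were chosen by, and few genes in the table had one. Over the 11731 genes whose mean reached 50 normalized counts, the median largest gap was 0.16 on the log2 scale, and 22 genes had a gap of at least 1, 10 of at least 2 and 8 of at least 3. The largest gaps of the 7 genes ran from 3.34 for ENSRNOG00000005826 to 7.02 for ENSRNOG00000029386. The remaining gene of the 8, ENSRNOG00000033517, met both values of the rule with a gap of 4.55 but is not among the 7 identifiers. Just outside the threshold lay ENSRNOG00000016164 with a gap of 2.84 and ENSRNOG00000039654 with 2.26, and just inside it lay ENSRNOG00000005826. Of the 3876 genes with a lower mean, 6 had a gap of at least 3, with means from 12.6 to 41.9 normalized counts.

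**Figure D1:**
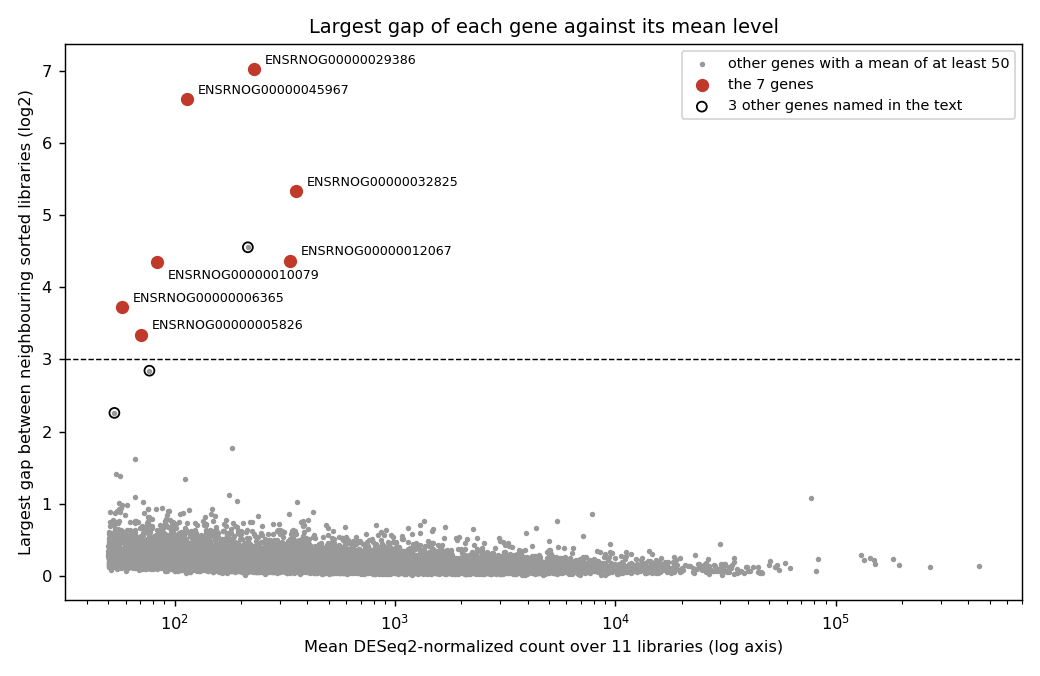
The largest gap between neighbouring sorted libraries (log2, vertical axis) is plotted against the mean DESeq2-normalized count (log axis) for 11731 genes, each point being 1 gene. The 7 genes (red) lie above the dashed line at 3 log2 with gaps of 3.34 to 7.02, open circles mark 3 other genes named in the text, and the median gap of all points is 0.16.

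In 3 of the genes the low side was a single library, and each time a library of another group. ENSRNOG00000029386 had 0 reads in proestrus replicate 1 and at least 118 in each of the other 10 libraries. Its normalized counts were 259 and 268 in proestrus replicates 3 and 5, and 278, 291, 267 and 287 in male replicates 2, 3, 4 and 5. Only diestrus spread inside the high side, with 149 and 129 in replicates 2 and 3 and 291 and 305 in replicates 4 and 5. A count of 0 allowed up to 3.33 normalized counts in proestrus replicate 1 (3 reads), so the mean of the high side, 252 ± 61.6 (SD, n = 10), was at least 75.9-fold higher. Counting error is the sole error this bound covers.

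The high side of ENSRNOG00000029386 held 2 levels. Diestrus replicates 2 and 3 had 139 ± 14.3 normalized counts (SD, n = 2), which was 0.494 of the 281 ± 15.3 of the other 8 high libraries (SD, n = 8). Across those 8 libraries, which came from all 3 groups, the coefficient of variation was 5.46%, where counting error alone gives 5.86% at their mean read number. The median coefficient of variation over all libraries was 12.1% over the same 11731 genes. This division was made after the values were seen and left out the 3 lowest libraries, so the narrow spread of the 8 is partly a product of it and is given as a description. The means were thus 139 and 281 normalized counts in 2 and 8 animals, beside 1 animal at 0 reads.

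ENSRNOG00000032825 was low in diestrus replicate 2, with 5 reads and 4.90 normalized counts. The other diestrus animals had 398, 292 and 472 normalized counts in replicates 3, 4 and 5. Proestrus replicates 1, 3 and 5 had 256, 236 and 557, and male replicates 2, 3, 4 and 5 had 300, 599, 489 and 310. All males, all proestrus females and 3 of the 4 diestrus females were thus on the high side, at 391 ± 131 (SD, n = 10). That mean was 79.8 times the low value (95% counting interval of the low reads 34.2 to 246). The high values varied by 33.5%, against 5.03% from counting error, and the largest step among them was 0.36 log2, so they formed a broad range in which no clear level stood apart.

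ENSRNOG00000005826 was low in male replicate 3, with 2 reads and 2.00 normalized counts, while male replicates 2, 4 and 5 had 78.6, 43.7 and 36.8. Diestrus replicates 2, 3, 4 and 5 had 126, 108, 88.7 and 89.9. Proestrus replicates 1, 3 and 5 had 85.4, 29.5 and 82.5. The mean of the high side was 76.9 ± 31.2 (SD, n = 10), 38.5 times the low value, with a wide 95% counting interval of 10.6 to 318 because the low value rests on 2 reads. Inside the high side a second step of 0.83 log2 lay between 3 libraries, namely proestrus replicate 3 and male replicates 4 and 5 at 36.7 ± 7.14 (SD, n = 3), and the other 7 at 94.2 ± 17.0 (SD, n = 7).

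ENSRNOG00000012067 was low in 2 animals of different stages. Diestrus replicate 4 had 5.68 normalized counts (5 reads) and proestrus replicate 1 had 8.87 (8 reads). The other diestrus females had 358, 423 and 479 in replicates 2, 3 and 5, and the other proestrus females 727 and 403 in replicates 3 and 5. Male replicates 2, 3, 4 and 5 had 203, 288, 342 and 421, so no male was low. The high side averaged 405 ± 146 (SD, n = 9), 55.6 times the low side (95% counting interval 32.5 to 104). Proestrus replicate 1 was low for this gene and for ENSRNOG00000029386, and diestrus replicate 4 was high for the latter.

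**Figure D2:**
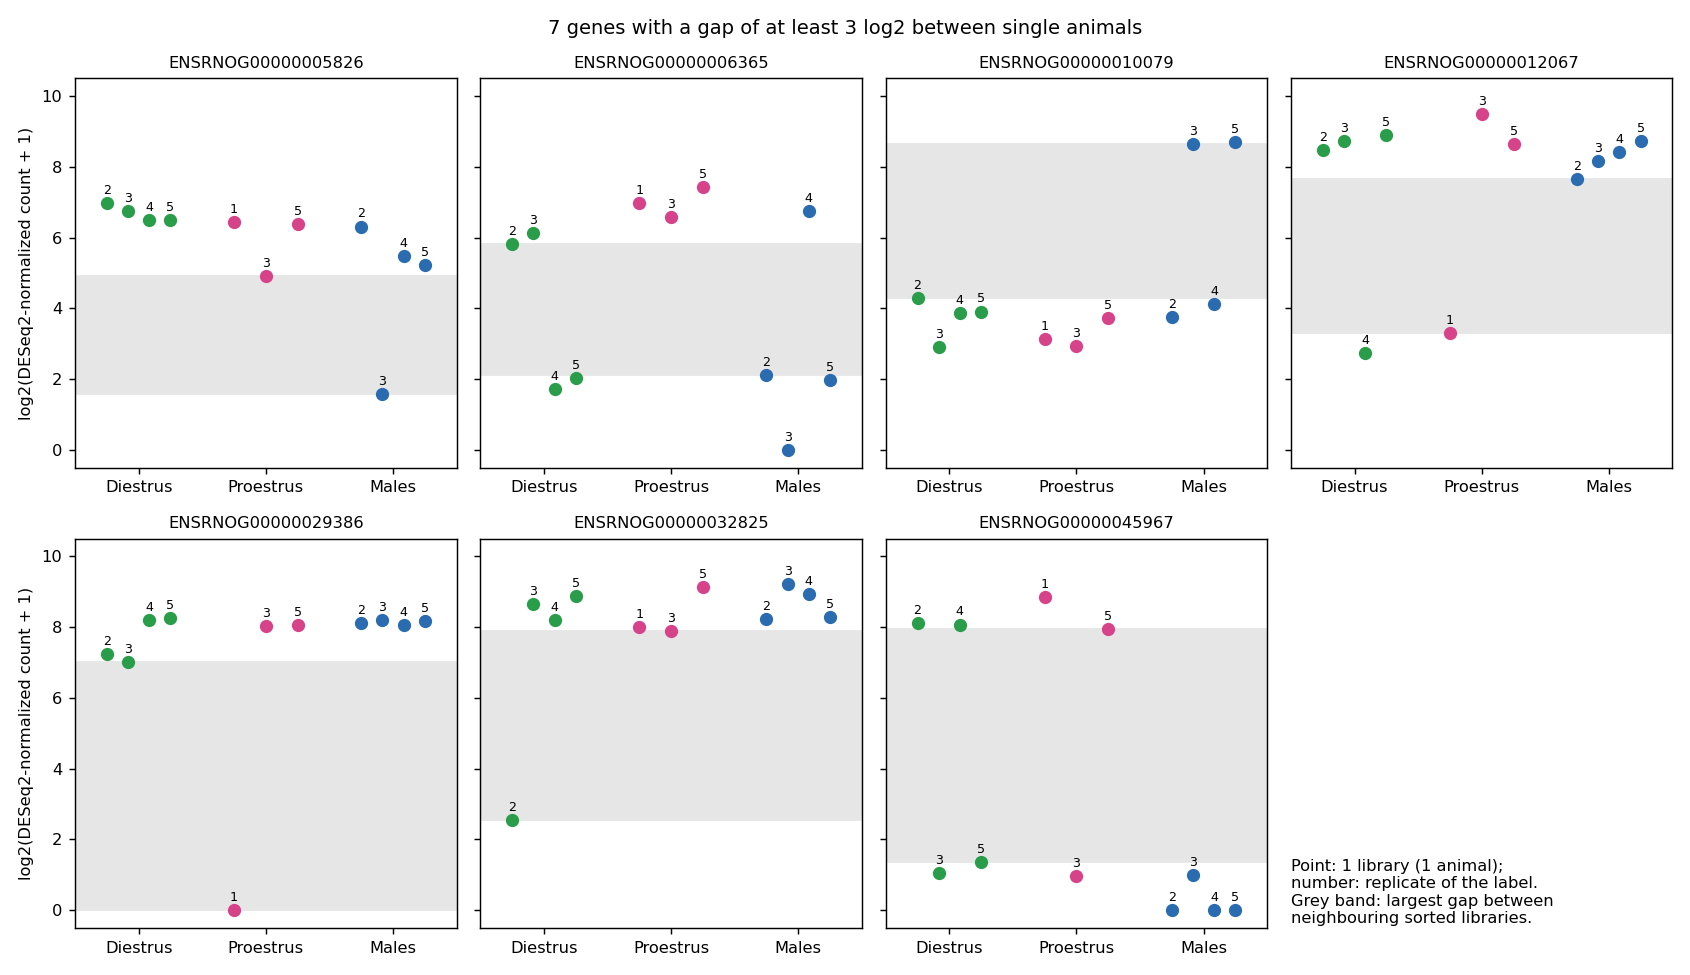
Each panel gives log2(DESeq2-normalized count + 1) of 1 gene in the 4 diestrus, 3 proestrus and 4 male libraries, with a point for each library, its replicate number beside it, and the largest gap as a grey band. The low side is a single library in ENSRNOG00000005826, ENSRNOG00000029386 and ENSRNOG00000032825, whereas in ENSRNOG00000010079 only 2 males lie above the band and in ENSRNOG00000045967 no male does.

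The reverse pattern, few high libraries over a low majority, was seen in ENSRNOG00000010079. It had 397 and 412 normalized counts in male replicates 3 and 5, but 12.4 and 16.5 in male replicates 2 and 4. Diestrus replicates 2, 3, 4 and 5 had 18.6, 6.54, 13.6 and 14.1, and proestrus replicates 1, 3 and 5 had 7.76, 6.65 and 12.2. All 7 females were on the low side, in the range of the 2 low males or below it except for diestrus replicate 2. The 2 high males were 33.6 times the low side (95% counting interval 27.9 to 40.9). Their own values lay close together, but 2 animals that the gap itself set apart give no measure of how such animals vary. The low side was not empty: its 9 libraries held 6 to 19 reads each and averaged 12.1 ± 4.30 normalized counts (SD, n = 9).

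ENSRNOG00000045967 was high in 4 females and in no male. Diestrus replicates 2 and 4 had 277 and 268 normalized counts, and proestrus replicates 1 and 5 had 460 and 248. The low side was at 0 to 2 reads: diestrus replicates 3 and 5 had 1 and 2 reads, proestrus replicate 3 had 1, male replicate 3 had 1, and male replicates 2, 4 and 5 had 0. Both female stages were therefore divided, with 2 of 4 diestrus and 2 of 3 proestrus females high. The ratio of the sides was 476 (95% counting interval 204 to 1467), resting on 5 reads over the 7 low libraries. Among the high libraries 3 lay close together at 264 ± 15.2 (SD, n = 3), which was 0.575 of the value of proestrus replicate 1.

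**Figure D3:**
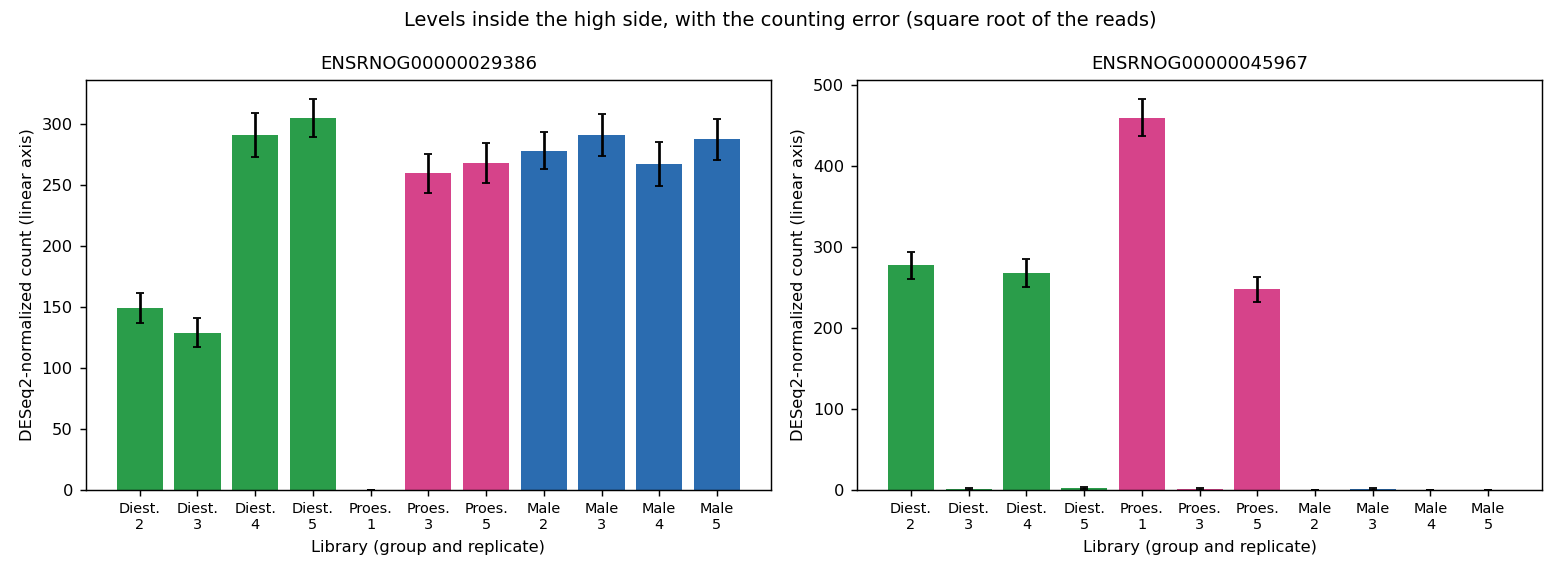
DESeq2-normalized counts on a linear axis are given as bars for the 11 libraries of ENSRNOG00000029386 (left) and ENSRNOG00000045967 (right), with error bars of the square root of the reads on the normalized scale. On the left, diestrus replicates 2 and 3 lie at 149 and 129 between the 0 of proestrus replicate 1 and the 259 to 305 of the other libraries; on the right, 4 females lie at 248 to 460 and the other 7 libraries at 0 to 1.56.

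ENSRNOG00000006365 divided the animals most evenly, with 6 high and 5 low libraries. The proestrus replicates 1, 3 and 5 were all high, with 126, 95.03 and 172 normalized counts. Diestrus was divided, with 55.8 and 68.7 in replicates 2 and 3 and 2.27 and 3.13 in replicates 4 and 5. Among males only replicate 4 was high, with 108, while replicates 2, 3 and 5 had 3.31, 0 and 2.90. The high side averaged 104 ± 42.0 (SD, n = 6) and the low side 2.32 ± 1.36 (SD, n = 5), with 0 to 4 reads in each low library, a ratio of 44.9 (95% counting interval 26.3 to 84.3). The 2 high diestrus females lay below the other 4 high libraries, at 0.497 of their mean, but the step between them was 0.46 log2 and the upper 4 varied by 27.0%.

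The 7 genes did not share their sides. Of the 21 pairs of these genes, 0 placed every library on the same side and 0 placed every library on opposite sides, and the number of libraries placed on the same side ran from 1 to 10 of 11. Each library was low for 1 to 3 of the 7 genes. Proestrus replicate 5 was low for 1, and diestrus replicates 4 and 5, male replicates 2 and 3 and proestrus replicate 1 were low for 3 each. The smallest library, male replicate 4 with 15851470 reads, was low for 2 genes, and the largest, diestrus replicate 5 with 24589880, was low for 3. Of the 21 combinations of a gene and a group, 10 had both high and low animals in the same group, and each of the 7 genes divided at least 1 group.

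**Figure D4:**
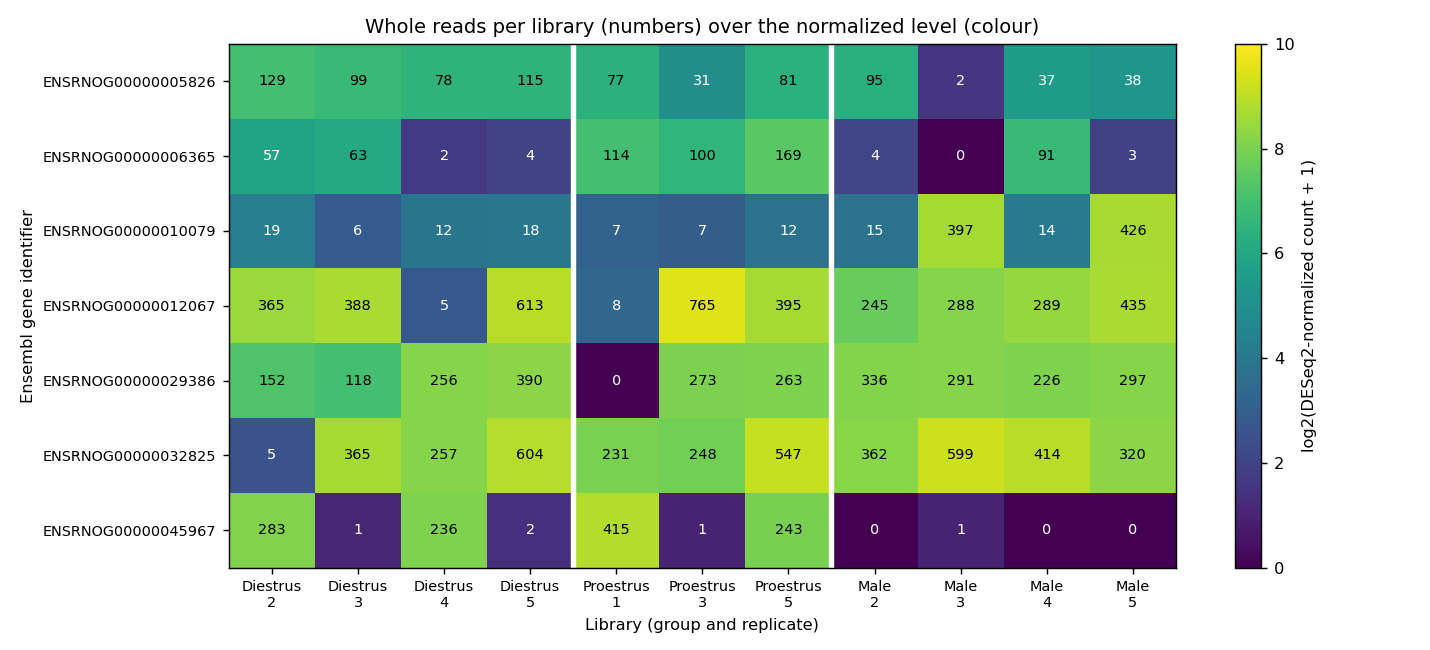
The numbers are whole reads per gene (7 genes, vertical) and library (11 libraries by group and replicate, horizontal), recovered from the normalized values, and the colour is log2(DESeq2-normalized count + 1). Darker cells with 0 to 19 reads and lighter cells with 31 to 765 reads stand in the same columns, so that no library is low throughout.

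Genes with the same division of animals were looked for among those with a clear gap of their own. Of those 11731 genes, one was counted as alike when its own largest gap, of at least 1 log2, parted the libraries in the same way. Only 22 genes had a gap of that size, the 7 genes among them, so few could qualify. ENSRNOG00000029386 had 1 such gene, ENSRNOG00000045924, which had 11.1 normalized counts in proestrus replicate 1 and 31.3 to 105 in the others, a gap of 1.42. ENSRNOG00000005826 also had 1, ENSRNOG00000040266, with 18.0 in male replicate 3 and 37.2 to 96.9 in the others, a gap of 1.01. The other 5 genes had 0. This likeness rests on 11 libraries and, in both cases, on 1 low animal.

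Whether the level of these genes differed between groups was tested with limma over all 15607 genes. The rule used no group label, but its minimum mean of 50 was reached by some genes through 1 sex or stage alone. ENSRNOG00000010079 averaged 11.4 normalized counts in females and ENSRNOG00000045967 averaged 0.25 in males, and the mean of ENSRNOG00000006365 was above 50 in proestrus only. ENSRNOG00000005826 averaged 87.2 in females and 40.3 in males, so its mean was above 50 in females only. The group differences of these genes are therefore not independent of their choice, and their tests are given as a description. In proestrus vs diestrus, 0 of the 7 genes passed a false discovery rate (FDR) of 0.05, where 2.53% of all genes did. In proestrus vs males it was 0 of 7 against 0.0833% of all genes, in diestrus vs males 0 of 7 against 0.128%, and in females vs males 0 of 7 against 0.135%. The 2.53% in proestrus vs diestrus was 395 genes, a number that ran from 0 to 1774 when 1 library was left out. It ran from 2 to 26 in proestrus vs males, 1 to 88 in diestrus vs males and 1 to 24 in females vs males. limma called 0 of the 7 genes in each of these fits. In most of them few genes were called at all, and 0 in proestrus vs diestrus without proestrus replicate 1 or 3. Those 0 calls therefore say little about the 7 genes. At an unadjusted limma p below 0.05 there were 1, 3, 3 and 3 of the 7 genes in these comparisons, and 4169, 1766, 1501 and 754 of all 15607 genes. The edgeR quasi-likelihood test on whole reads called 0 in each, where 2.7%, 0.0833%, 0.141% and 0.147% of all genes were called. DESeq2 called 0, 2, 2 and 2, where 6.89%, 0.756%, 0.75% and 0.493% of all genes were called. The comparisons share libraries, among them the 4 males, and are not independent of each other.

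The animals within a group spread so widely that the intervals of these differences were broad. The limma standard errors of the 7 genes ran from 0.69 to 1.93 log2 over the 4 comparisons. The median log2 fold change of the 7 genes was −0.06 for proestrus against diestrus and −0.33 for proestrus against males. It was −0.47 for diestrus against males and −1.06 for all females against males, and that of all genes was between −0.01 and 0.01. These medians had no stable direction, since they were above 0 in all 4 comparisons with edgeR (0.26, 0.29, 0.03 and 0.14, in the same order) and with DESeq2 (0.26, 0.28, 0.01 and 0.13). With limma, 1 library was enough to move them. Proestrus against males was 0.84 without proestrus replicate 1, proestrus against diestrus 0.37 without that library, diestrus against males 0.46 without diestrus replicate 4, and all females against males −0.21 without diestrus replicate 2. A difference of several fold in either direction between groups was therefore not detectable for most of these genes.

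**Figure D5:**
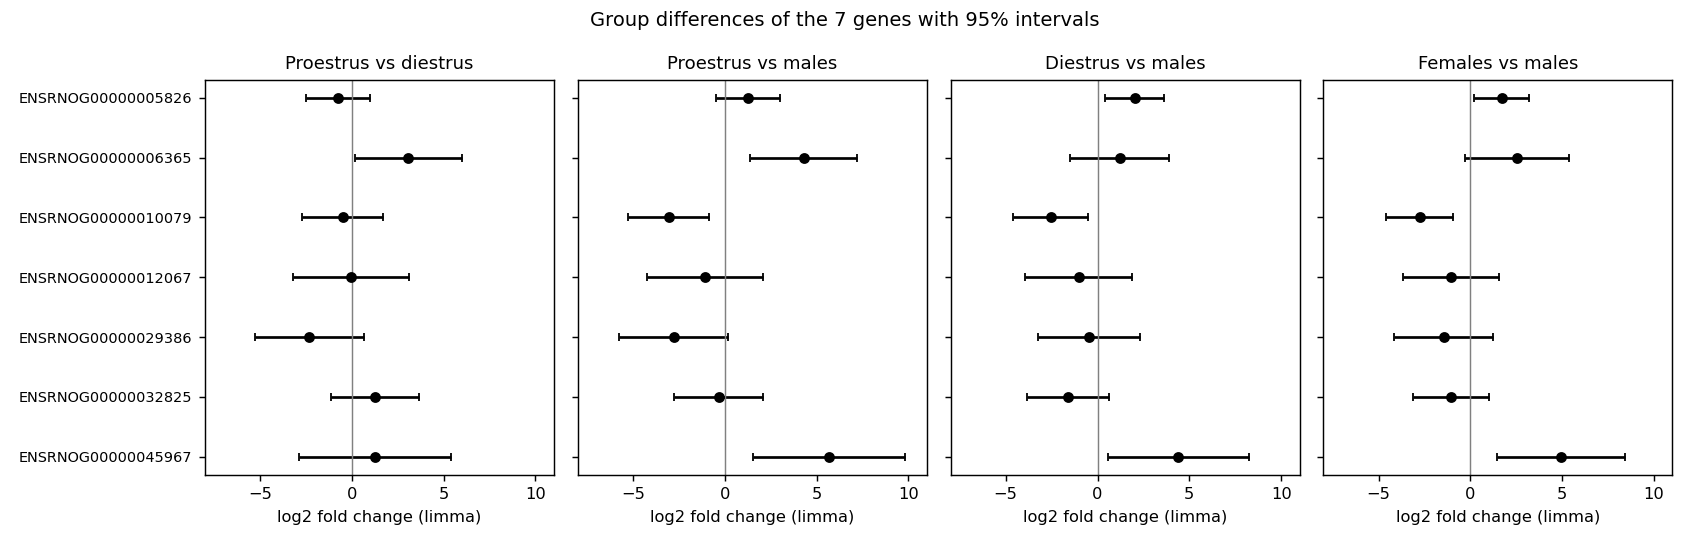
The log2 fold change of each of the 7 genes (points) is given with its 95% interval from limma (bars) in the 4 comparisons, 1 panel each. None passed the FDR with limma, and the widest intervals belong to ENSRNOG00000045967, for example 1.52 to 9.83 in proestrus vs males.

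The groups of a gene did not overlap in 5 cases, and these are given with their fits. Group values are means ± SD over 3 proestrus, 4 diestrus and 4 male libraries. In proestrus vs diestrus this held for 2 of the 7 genes, where it held for 26.6% of all genes. ENSRNOG00000006365 averaged 131 ± 38.8 normalized counts in proestrus against 32.5 ± 34.8 in diestrus, and its log2 fold change was 3.08 (SE 1.36, limma adjusted p = 0.173). It was 2.04 with edgeR (adjusted p = 0.204) and 2.02 with DESeq2 (adjusted p = 0.405), and with limma it ran from 2.34 without diestrus replicate 4 to 3.81 without diestrus replicate 3. ENSRNOG00000005826 averaged 65.8 ± 31.5 in proestrus against 103 ± 17.8 in diestrus, and its log2 fold change was −0.77 (SE 0.81, limma adjusted p = 0.538). It was −0.28 without proestrus replicate 3, the lowest of that group, and −0.38 with the replicate number as a block. The latter groups were parted by 85.4 and 88.7 normalized counts, which is within counting error.

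In diestrus vs males 2 of the 7 genes did not overlap, where this held for 3.84% of all genes. ENSRNOG00000005826 averaged 40.3 ± 31.4 normalized counts in males, with a log2 fold change of 2.03 for diestrus (SE 0.75, limma adjusted p = 0.46), which was 1.01 without male replicate 3, its one low library. The groups were parted by 88.7 normalized counts in diestrus replicate 4 and 78.6 in male replicate 2, which is within counting error. The mean of this gene was above 50 in females only, so this difference is not independent of the choice. ENSRNOG00000045967 did not overlap there only by the scaling of 1 read, since diestrus replicate 3 and male replicate 3 had 1 read each. In proestrus vs males 1 of the 7 genes did not overlap, where this held for 13.3% of all genes. This was ENSRNOG00000010079, whose highest proestrus value was 12.2 and lowest male value 12.4, a difference within counting error. In females vs males it was 0 of 7, against 1.06% of all genes.

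The calls made by DESeq2 and not by limma concerned ENSRNOG00000010079 and ENSRNOG00000045967, which had reached the minimum mean through males alone and through females alone, so that these calls rest on values the choice had used. ENSRNOG00000010079 averaged 210 ± 225 normalized counts in males, against 8.88 ± 2.95 in proestrus and 13.2 ± 4.99 in diestrus. Its log2 fold change in females vs males was −2.76 with limma (SE 0.85, adjusted p = 0.578) and −4.20 with DESeq2 (SE 0.87, adjusted p = 0.000655), and the adjusted p ran from 3.58e-06 to 1.00 over the alternatives of this result. The male mean lay where no male did, between 2 animals near 400 and 2 below 17. Without male replicate 3 or male replicate 5, DESeq2 gave no adjusted p for this gene in any comparison with males. In proestrus vs males (adjusted p = 0.0125 with DESeq2 and 0.373 with limma) it lost the DESeq2 call without any 1 of the 3 proestrus libraries (0.0642 to 0.143). In diestrus vs males (0.0188 and 0.46) it lost it without diestrus replicate 2, 3 or 4 (0.0572 to 0.145).

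ENSRNOG00000045967 averaged 180 ± 181 normalized counts over the 7 females against 0.25 ± 0.50 in males, where 1 read was counted over the 4 males. Its log2 fold change in females vs males was 4.95 with limma (SE 1.61, adjusted p = 0.643) and 9.23 with DESeq2 (SE 1.91, adjusted p = 0.000669). Over the alternatives of this result the adjusted p ran from 0.000142 to 1.00, and the DESeq2 value stayed below 0.05 whichever of the 11 libraries was left out, which is no independent support because the same values had chosen the gene. The fitted size depends on how a count near 0 is handled and is no bound, and 3 of the 7 females were at the level of the males, with 1 or 2 reads. In proestrus vs males (adjusted p = 0.0105 with DESeq2 and 0.373 with limma) the DESeq2 call was lost without proestrus replicate 1 or 5 (0.0966 to 0.213). In diestrus vs males (0.013 and 0.477) it was lost without diestrus replicate 2 or 4 or male replicate 2, 4 or 5 (0.0588 to 0.114).

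The order of the group means was read against this spread. For ENSRNOG00000012067 the means were 379 ± 360 normalized counts in proestrus, 316 ± 213 in diestrus and 313 ± 91.7 in males, so that no neighbours in the order differed beyond their spread. For ENSRNOG00000032825 they were 424 ± 145 in males, 350 ± 180 in proestrus and 292 ± 205 in diestrus, again within their spread. For ENSRNOG00000029386 they were 281 ± 10.7 in males, 218 ± 92.4 in diestrus and 176 ± 152 in proestrus, where the males were the tightest group and each female group held the lower animals. For ENSRNOG00000006365, proestrus was followed by diestrus and then by males at 28.4 ± 52.8, and the last 2 lay within their spread.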

How the data were processed

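The libraries were poly(A)-selected and unstranded. After trimming (Trimmomatic), the authors aligned reads to Rnor_5.0 and the spike-in sequences (TopHat2, Bowtie2), took HTSeq counts of reads with a unique position in each Ensembl gene, discarded genes with few reads and removed 1 proestrus library, which was not analysed here. Reads shared with a near-identical gene were therefore not counted, and overlapping or antisense genes cannot be told apart. The 2 tables the authors deposited hold a signal that is never below 0: read counts divided by a DESeq2 size factor, and read counts multiplied by edgeR factors without scaling for depth. In the first, 100% of the values were whole multiples of 1 step per library (tolerance 0.01), which gave whole reads.

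Groups were taken from the labels, each library being 1 animal, so that p-values measure the spread between animals. The main test was limma 3.58.1 (R 4.3.3, variance trend) on log2(normalized count + 1), which understates changes of low genes, over all 15607 genes with Benjamini-Hochberg adjustment. The 3 pairwise comparisons shared 1 fit, while the sex comparison had a fit of its own with no stage term. edgeR 4.0.16 (quasi-likelihood, TMM) and DESeq2 1.42.0 (no outlier replacement) were run on the whole reads as alternatives, because the deposited values are normalized. limma was tested on simulated data. Counting intervals are exact Poisson intervals of the low-side reads. Genes outside the 7 were named by the largest gap, by closeness to the threshold or by the same division of libraries, with at most 2 per gene. The 7 genes, the lists and the tests were chosen with earlier results of these data known. No sequence is shown because the identifiers could not be matched to the sequence tables used here.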

Additional observations from a re-analysis of the deposited data

Results flagged for a closer look

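In sets of 4 libraries of 1 group, 3 of the 14 examined (7 genes in diestrus and in males, log2 scale) held a library far from the other 3. Chance gives about 1 in 20 such sets, but the genes were chosen for gaps between animals, so this number is a description and supports nothing. Diestrus replicate 4 stood apart for ENSRNOG00000012067, at 5.68 normalized counts against 358 to 479, and its gap to the nearest library was 0.932 of the whole range. Diestrus replicate 2 stood apart for ENSRNOG00000032825, at 4.90 against 292 to 472, with 0.891 of the range. Male replicate 3 stood apart for ENSRNOG00000045967 with 1.0 of the range, which was 1 read against 0 in the other 3 males.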

How the results depend on the processing

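Of 447 values recomputed under alternatives (another pseudocount, normalization, low-value filter, test or deposited table, or 1 library less), 352 kept their direction and side of the threshold or stayed within the spread, 0 changed direction, 53 passed the threshold with DESeq2 where limma did not, and 42 shifted. These counts do not measure stability. Fold changes were included only for DESeq2 calls or groups without overlap, and many values could not move if an uninvolved library was left out. The median fold changes of the 7 genes, not included, changed sign. limma and edgeR called 0 of the 7 genes in each comparison. Against males, DESeq2 called 2 each for proestrus, diestrus and all females. Without 1 library it called 0 to 3, 0 to 2 and 1 to 3, in fits added after seeing the data. Of all 15607 genes these fits called 41 to 374, 34 to 560 and 42 to 85. The DESeq2 log2 fold changes were −4.56, −3.99 and −4.20 for ENSRNOG00000010079 and 9.62, 8.84 and 9.23 for ENSRNOG00000045967, in the same order. Without 1 library those of ENSRNOG00000010079 ran from −4.96 to −4.00, −4.38 to −3.43 and −4.60 to −3.64 with DESeq2 and from −3.89 to −2.24, −3.41 to −1.76 and −3.61 to −1.96 with limma. Those of ENSRNOG00000045967 ran from 8.70 to 10.4, 8.23 to 9.57 and 8.80 to 9.96 with DESeq2 and from 4.21 to 8.15, 3.25 to 5.60 and 4.34 to 5.65 with limma. DESeq2 also called ENSRNOG00000006365 without male replicate 4, its only high male, at 5.97 for proestrus and 5.16 for all females. Its choice used these values and the other males had 0 to 4 reads, so this supports nothing. The cause of the difference between the tests was not tested.

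With a pseudocount of 5 the gaps were 2.30 for ENSRNOG00000005826, 2.87 for ENSRNOG00000006365, 4.74 for ENSRNOG00000029386, 4.60 for ENSRNOG00000032825 and 5.27 for ENSRNOG00000045967, so that 5 of the 7 genes had a gap of at least 3. With a pseudocount of 0.5 the gap of ENSRNOG00000029386 was 8.01. The pseudocount sets the size of a gap to a library near 0 reads. Without 1 library, 6 to 7 of the genes kept both values of the rule. Without its single low library the gap fell to 0.83 for ENSRNOG00000005826 (male replicate 3), 0.80 for ENSRNOG00000029386 (proestrus replicate 1) and 0.36 for ENSRNOG00000032825 (diestrus replicate 2), and at most they were 3.65, 7.23 and 5.45. Without proestrus replicate 5 the mean of ENSRNOG00000006365 fell below 50. The other ranges were 3.72 to 4.01 for ENSRNOG00000006365, 4.34 to 4.50 for ENSRNOG00000010079, 4.37 to 4.93 for ENSRNOG00000012067 and 6.60 to 6.89 for ENSRNOG00000045967.

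With the replicate number as a block, limma called 0 of the 7 genes in each comparison, while its calls over all genes went from 13 to 3 in proestrus vs males and from 20 to 47 in diestrus vs males. The deviations of animals with the same number correlated at 0.012 to 0.591 over 8 pairs, below 0.1 in 2 of them. Diestrus replicate 5 correlated better with male replicate 4 (0.580) than with 5 (0.397). All 8 were above 0. Whether a number marks a shared day or litter is not stated and was not tested, so the numbers were not treated as pairs. At 0 to 8 reads in all but 1 gene, the low side sets how exactly a ratio is known.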
